A study of Mus musculus with 16 samples.

Results

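DNA:RNA hybrid immunoprecipitation sequencing (DRIP-seq) with the S9.6 antibody was performed on the mouse embryonic fibroblast line NIH/3T3. The regions described here are the linear R-loops of Xpo4 knockout (KO) cells that lie outside all genes of the GENCODE M21 annotation. Linear means here that no peak was called after RNase R, and signal below the calling limit was not measured. Of 43951 regions obtained by merging the peaks of both KO replicates without RNase R, 14108 on chromosomes 1 to 19 and X held a peak of each replicate. Of these, 4928 overlapped no peak of either RNase R-treated KO replicate and no gene of any type in GENCODE M21 (GRCm38). They cover 1460 kb, and 4926 of them hold exactly 1 peak of each replicate. The peak calls of the 4 KO lists chose the regions, so enrichment in those lists is given as a description only.

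The libraries form 4 groups of 2. KO RNase R- and KO RNase R+ came from a CRISPR-Cas9 line with both copies of Xpo4 edited, and WT RNase R- and WT RNase R+ from the unedited line. RNase R+ DNA was incubated with RNase R before the pull-down, and RNase R- DNA with its buffer alone. All DNA was first cut with a restriction cocktail, described below with its sites, and E. coli DNA was added for normalization. The labels give no separate cultures for the replicates, so the spread between them may be technical. The knockout is 1 line, so genotype and line cannot be told apart. KO and WT libraries also differed in read number and in how peaks fitted restriction fragments, both described below. Genotype thus cannot be told apart from library preparation either. Lists of genomic peaks hold no expression with which to check the fibroblast label.

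An R-loop is a hybrid of RNA with 1 strand of DNA that leaves the other DNA strand unpaired. It forms most often when a new transcript pairs with its template, and purine-rich RNA gives a stable hybrid with its DNA strand. RNase R degrades linear RNA from its 3′ end and spares circles, so the study calls R-loops lost after RNase R linear R-loops and those that remain circular RNA R-loops. S9.6 binds the hybrid itself, so a peak is read as a DNA fragment that carried a hybrid and not as the gene the RNA came from. No library was labelled as treated with RNase H, which digests the RNA of hybrids, so other binding was not measured. Exportin 4, the product of Xpo4, is a nuclear export receptor.

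The sequences of the regions had a feature in common that the choice did not use. In 3484 of the 4928 regions (70.7%) there was an unbroken run of at least 30 purines (A and G) on 1 strand, which is a run of pyrimidines on the other. The following regions show such runs. They were picked after their values were seen, by the lower fold of the 2 replicates, among regions of at most 300 bp with a given kind of run or a peak of both WT RNase R- lists. All are GRCm38 reference sequence, plus strand, and the longest run is in capitals.
chr12:107449109-107449401: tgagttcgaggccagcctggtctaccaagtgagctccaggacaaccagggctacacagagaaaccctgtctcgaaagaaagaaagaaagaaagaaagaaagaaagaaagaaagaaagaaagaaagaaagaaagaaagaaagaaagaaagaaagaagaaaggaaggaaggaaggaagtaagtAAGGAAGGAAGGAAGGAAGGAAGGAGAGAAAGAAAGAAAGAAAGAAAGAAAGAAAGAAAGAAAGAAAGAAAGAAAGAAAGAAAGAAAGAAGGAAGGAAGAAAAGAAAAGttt
chr8:94163822-94164101: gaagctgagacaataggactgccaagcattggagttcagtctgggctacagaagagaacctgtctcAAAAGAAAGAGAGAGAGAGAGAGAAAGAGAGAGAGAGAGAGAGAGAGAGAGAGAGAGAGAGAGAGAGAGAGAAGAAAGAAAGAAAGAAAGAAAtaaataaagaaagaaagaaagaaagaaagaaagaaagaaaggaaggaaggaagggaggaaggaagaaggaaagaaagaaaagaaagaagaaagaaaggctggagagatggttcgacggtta
chr4:67973979-67974230: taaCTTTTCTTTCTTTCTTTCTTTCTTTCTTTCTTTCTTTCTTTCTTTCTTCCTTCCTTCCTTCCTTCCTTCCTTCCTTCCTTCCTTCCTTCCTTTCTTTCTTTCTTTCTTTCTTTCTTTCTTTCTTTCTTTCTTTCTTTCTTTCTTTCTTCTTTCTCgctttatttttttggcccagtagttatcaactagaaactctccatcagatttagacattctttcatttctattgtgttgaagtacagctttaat
The chromosome 12 region carries a run built from AAAG, read on the purine strand, with fold enrichments of 20.6 and 18.1 in KO replicates 1 and 2. On chromosome 8 the run is built from AGAG, and the summit height was 22 fragments in each replicate. On chromosome 4 it is again built from AAAG. The chromosome 4 region is the one of these that also held a peak of both WT RNase R- lists, with folds of 10.8 and 10.5 in KO and 7.44 and 6.04 in WT.

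Regions without such a run often carried a different repeat, described below. The next sequence, on chromosome X, was the one with the highest lower fold among regions of at most 300 bp without a run and without unknown bases in the reference, and is printed without capitals.
chrX:21848287-21848533: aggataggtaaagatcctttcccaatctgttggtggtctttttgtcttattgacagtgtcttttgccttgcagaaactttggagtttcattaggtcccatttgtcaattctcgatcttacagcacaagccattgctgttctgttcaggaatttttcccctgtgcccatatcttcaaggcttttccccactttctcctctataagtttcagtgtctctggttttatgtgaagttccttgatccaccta

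The enrichment over the regions was moderate and similar in both KO replicates. Fold enrichment is the number of fragments at the summit plus 1, over the number the caller expected plus 1. It ran from 2.96 to 24.4 with a median of 7.05 in replicate 1. In replicate 2 it ran from 2.89 to 26.9 with a median of 7.38. The median summit height was 14 fragments in replicate 1 and 15 in replicate 2. In 4071 regions (82.6%) the replicates' folds lay within 1.5-fold of each other, and the median absolute log2 ratio was 0.28. Across the 4928 regions the folds correlated with a Pearson r of 0.46 on the log2 scale and a Spearman rho of 0.43, values that describe regions of 1 pair of libraries. The replicates' summits lay a median of 32 bp apart.

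**Figure D1:**
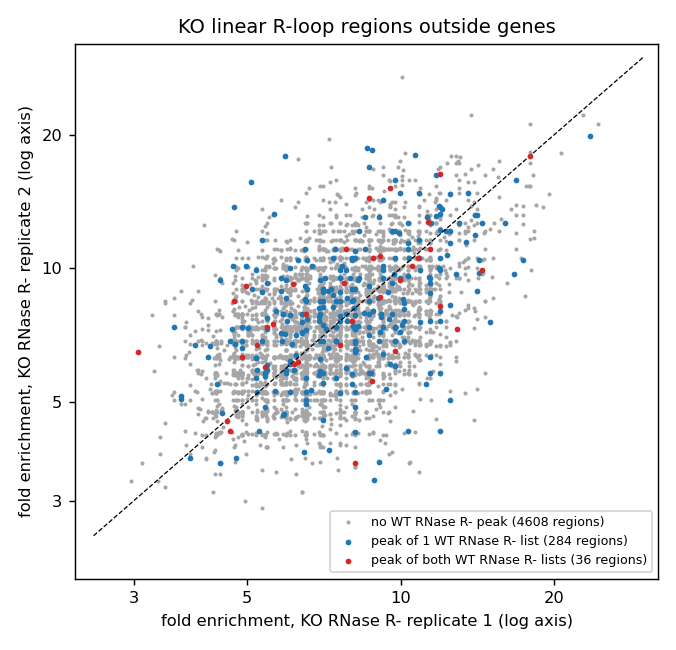
Fold enrichment of the 4928 regions in KO RNase R- replicate 1 (x axis) against replicate 2 (y axis), both on log axes; each point is 1 region, coloured by how many WT RNase R- lists hold a peak there, and the dashed line marks equal folds. The 36 regions with a peak of both WT lists (red) are spread through the cloud.

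Only 298 regions (6.05%) reached a fold of 10 in both replicates. The highest lower fold was found at chr11:121982336-121982562, with folds of 22.8 and 22.2 and heights of 718 and 680 fragments. There the expected level was 30.5 fragments in replicate 1, far above the background level of 0.843. An expected level above 3 times the background of the list is called multi-copy here, although copy number itself was not measured. Such a level was seen in either replicate at 306 regions (6.21%). The next was the chromosome X region printed above, with folds of 24.4 and 21.1 and heights of only 44 and 39.

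Of the 10 regions with the highest lower folds, 7 held a run of at least 30 purines. At chr4:116657680-116658019, 5999 bp upstream of Akr1a1, an aldehyde reductase gene, the folds were 23.5 and 19.9 and the run was 198 bases long. WT RNase R- replicate 1 had a peak there with a fold of 6.45, and the other WT lists had none. At chr19:4087944-4088179, 603 bp downstream of the calcium-binding protein gene Cabp2, the run filled 230 of the 236 bases, and the folds were 18.2 and 16.2. At chr19:29399178-29399462, 11082 bp downstream of Cd274, the gene of the immune checkpoint ligand PD-L1, the run was 123 bases long. The folds there were 16.8 and 15.8, and WT RNase R- replicate 2 had a peak with a fold of 8.73. At chr1:171474921-171475229, 10317 bp downstream of the junction adhesion gene F11r, the folds were 17.9 and 17.2 and the run had 130 bases. Near Chmp6, a gene of the membrane-remodelling ESCRT complex, chr11:119920577-119920922 had folds of 17.9 and 21.1, a GC content of 54.9% and no run over 10 bases.

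The widest region, chr16:21224868-21226077, spanned 1210 bp and began 1562 bp downstream of Ephb3, a receptor tyrosine kinase gene, with folds of 12.5 and 6.72. The next, chr6:49241811-49242902 (1092 bp), lay 1021 bp downstream of the splicing regulator gene Tra2a, with folds of 11.9 and 8.97. The third, chr17:84854198-84855250 (1053 bp), 746 bp from the pseudogene AC122243.2, had folds of 4.67 and 7.31, and WT RNase R- replicate 1 had a peak there with a fold of 5.68. Each held a purine run, of 89, 36 and 198 bases in this order.

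The limits of the choice fell as follows. Every region had a −log10 q of at least 3.11 in replicate 1 and 3.03 in replicate 2. The regions nearest to a gene lay 3 bp from the pseudogene Gm11792 (folds 5.63 and 8.86) and 5 bp from the pseudogene Gm37994 (folds 7.92 and 6.02). Just inside genes, 1 bp of overlap left out a region at Zfp36, the gene of the mRNA decay factor tristetraprolin (folds 8.55 and 10.5), and another at Gm37603 (folds 8.68 and 11.1). The regions nearest to an RNase R+ peak of KO lay 116 bp (folds 7.60 and 7.07) and 206 bp (folds 6.46 and 8.17) from it. The smallest overlaps that left a region out were 59 bp (folds 5.97 and 8.36) and 126 bp (folds 8.14 and 5.31). A further 5527 regions of replicate 1 and 8171 of replicate 2 met the other criteria but had no peak in the other replicate.

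To compare purine runs across sets, each region was reduced to the 259 bp around its midpoint, the median width of the 4928 regions. In these windows 67.7% of the regions (3338) held a run of at least 30 purines or pyrimidines, compared with 3.45% of all 5185186 windows of that length outside genes. Among KO linear R-loop regions inside genes the share was 50.8% of 5374, and among KO regions outside genes that overlap an RNase R+ peak it was 74.8% of 1605. These sets were chosen on the same lists, so their shares are descriptions. Purine windows are common in the genome: 2.67% of the 179068 windows with a run overlapped a region, compared with 0.114% of the windows without one.

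Among the 3484 regions with a run, its median length was 106 bases and the longest had 441. AAAG was the most frequent unit in 2270 of them (65.2%), with a median run of 123 bases. AAGG led in 492, AGAG in 419, AAAA in 180 (with a median of 10.9% G in the run) and AGGG in 123. G made up a median of 34.2% of the run. The purines lay on the plus strand in 1702 regions and on the minus strand in 1782. Enrichment rose slightly with run length, from a median lower fold of 6.09 in the 1444 regions without a run to 6.91 in the 880 regions with a run of at least 150 bases (Spearman rho 0.15 over 4928 regions, a description).

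The share of regions inside a run was highest near the summit. At the replicate 1 summit itself, 38.8% of the regions were inside a run, falling to 22.2% at 100 bp and to 1.55% at 400 bp on either side. Of the regions with a run, 49.5% had the replicate 1 summit inside it and 48.5% the replicate 2 summit. Read along the purine strand, the summits were displaced toward the 5′ end. The median distance from the centre of the run was -26.5 bp in replicate 1 and -26.0 bp in replicate 2, with quartiles of -78.5 and 23.5 bp and of -79.0 and 22.5 bp.

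**Figure D2:**
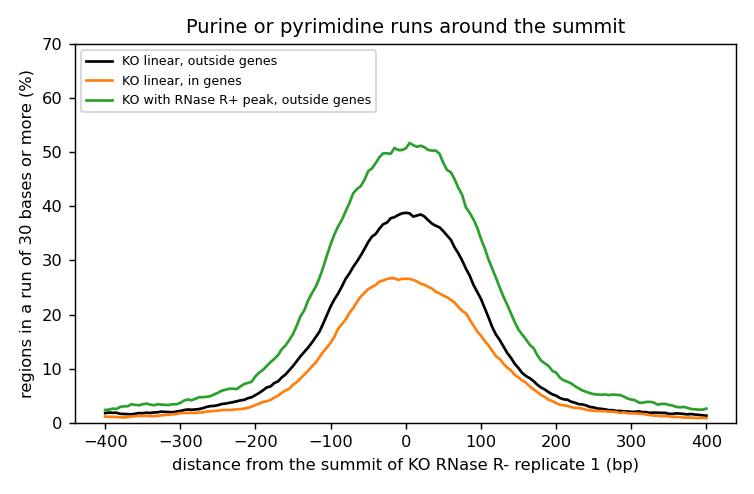
Share of regions (y axis, percent) that lie in a purine or pyrimidine run of at least 30 bases at each distance in bp from the KO RNase R- replicate 1 summit (x axis), for the 4928 KO linear R-loop regions outside genes (black), those in genes (orange) and KO regions outside genes with an RNase R+ peak (green). All curves are highest near the summit, where the values at distance 0 are 38.8% for the black curve, 26.6% for the orange and 50.7% for the green.

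The 9 letters CCAGCCTGG, which are part of the B1 family of short interspersed elements, were searched on both strands and found in 680 windows of the regions (13.8%), compared with 1.67% of all windows outside genes. In 555 regions that held both a run and these letters, the letters lay on the 5′ side of the run, read on the purine strand, in 502 (90.5%). The chromosome 12 sequence above shows this order, with the B1 letters first and the AAAG run after them. Runs led by the unit AAAA had the letters in 35.0% of cases, and runs led by AAAG in 13.1%.

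Runs of at least 30 bases made only of A and C, or of G and T on the other strand, were the second repeat class. They were present in 21.1% of the regions (1038) and in 3.65% of all windows outside genes. Among the 1590 regions with no purine run in the window the share was 44.7%. By contrast, 2.80% of the KO regions outside genes with an RNase R+ peak held such a run, and 4.74% of them held the B1 letters. Neither repeat was particular to sequence outside genes. For KO linear R-loops in genes, the A/C or G/T share was slightly below the 21.1% of the regions and far above 3.65%. The B1 letters were found in 14.0% of those in genes, near the 13.8% of the regions. A/T runs of the same length were found in 2.62% of the regions and 1.21% of all windows. Neither a purine run, an A/C or G/T run nor the B1 letters were found in 790 regions.

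The same measures were taken on all peaks outside genes in each list. A/C or G/T runs were found in 17.9% and 18.9% of the KO RNase R- peaks (replicates 1 and 2) and in 5.47% and 4.78% of the KO RNase R+ peaks. The choice did not use the WT lists, where such runs were in 13.7% and 12.1% of peaks without RNase R and in 2.11% and 3.68% with it. Both WT RNase R- lists thus lay above both RNase R+ lists, by a mean of 9.99 percentage points (exact permutation test, two-sided, p = 0.333, n = 2 lists in each group). Without RNase R, KO exceeded WT by 5.54 points, with the same p by exact permutation. After scaling to the WT background the difference was 8.45 points. That comparison also left out peaks that overlap an RNase R+ peak of the same genotype, so its peak sets are not those of the 5.54 points. The exact permutation p of 0.333 is the smallest that 2 lists against 2 allow. After Benjamini-Hochberg adjustment over 10 tests it was 0.370. In WT the B1 letters were present in 8.20% and 7.81% of peaks without RNase R and in 1.41% and 0.526% with it, a difference of 7.04 points (exact permutation test, p = 0.333, adjusted p = 0.370). The WT RNase R+ lists held only 142 and 190 peaks outside genes, of which 45.8% and 37.4% were multi-copy by their expected level.

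Purine runs were found in 62.3% and 61.9% of the KO RNase R- peaks outside genes. In the corresponding WT lists the shares were 46.5% and 44.5%. The difference of 16.58 points was larger than the spread between replicates, which was 0.283 points in KO and 1.41 in WT (SD, n = 2 lists each). By exact permutation p was 0.333 and the adjusted p 0.370, the lowest that the design allows. With RNase R the shares were 65.1% and 63.4% in KO, against a mean of 38.3% in WT (SD 2.39, n = 2 lists), a difference of 25.93 points with the same p by exact permutation. Without multi-copy peaks the RNase R+ difference was 16.71 points. The RNase R- difference was 8.15 points among peaks on restriction fragments of 200 bp or more, and 55.33 points among peaks with a fold of at least 10. A fold of 10 is not the same cut in both genotypes, since it takes fewer fragments at the lower WT background.

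**Figure D3:**
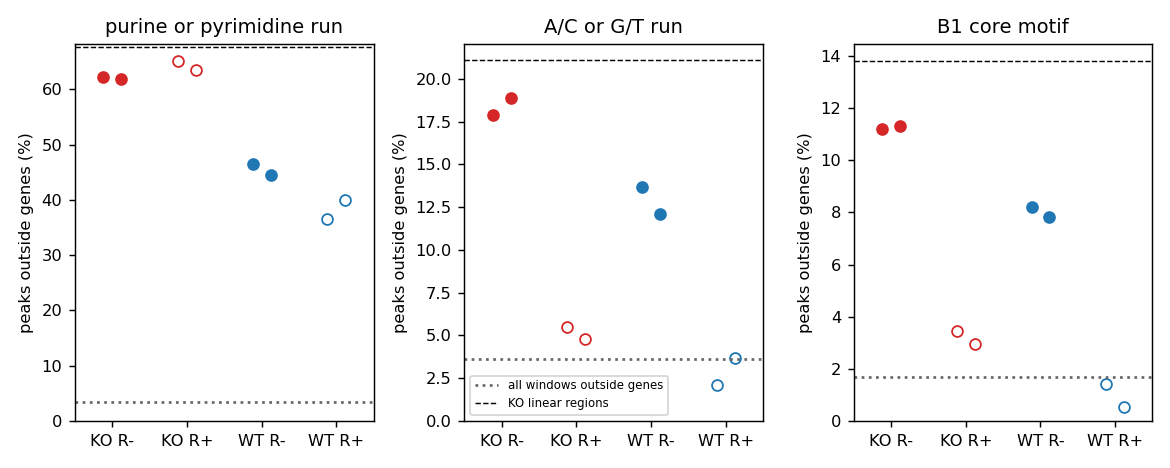
Share of peaks outside genes (y axes, percent) that hold a purine or pyrimidine run, an A/C or G/T run or the B1 letters in each of the 8 lists; each point is 1 list, KO red and WT blue, RNase R- filled and RNase R+ open. The dotted line is the share of all windows outside genes (3.45%, 3.65% and 1.67%) and the dashed line that of the 4928 regions (67.7%, 21.1% and 13.8%).

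The DNA had been cut before the pull-down at TTAA (MseI), CTNAG (DdeI), AGCT (AluI) and GATC (MboI), each of which reads the same on both strands, and the regions followed these cuts. For each region, the restriction fragment that holds its midpoint was predicted from the reference genome. In 3344 regions (67.9%) both ends lay within 20 bp of the ends of that fragment, and in 88.8% at least 1 end did. Only 0.555% of all windows outside genes had both ends at such cuts, or 3.92% of the windows on fragments of 200 bp or more. The median fragment was 242 bp at the regions and 91 bp at all windows, and 89.1% of the regions but 14.1% of the windows lay on a fragment of 200 bp or more. The peak caller sets a least peak width, which was 211 bp and 214 bp in the KO RNase R- lists. There were 7.28 sites per kb in the regions and 18.3 in all windows.

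**Figure D4:**
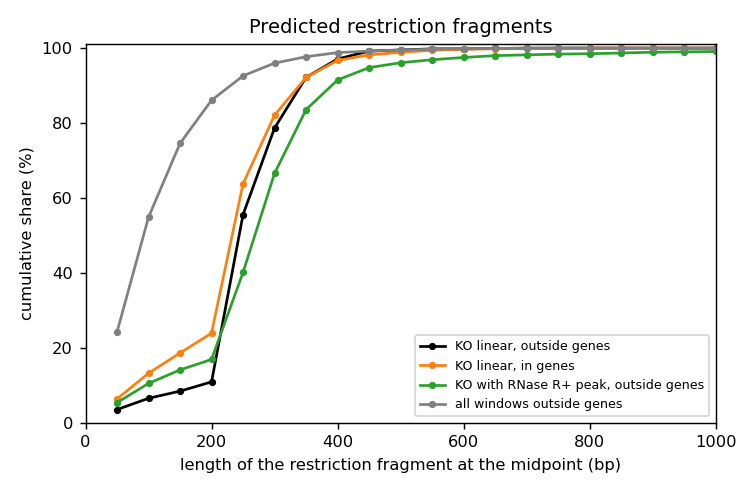
Cumulative share (y axis, percent) of regions or windows by the length in bp of the predicted restriction fragment at their midpoint (x axis), for the 4928 regions (black), KO linear regions in genes (orange), KO regions outside genes with an RNase R+ peak (green) and all windows outside genes (grey). The median fragment is 242 bp at the regions and 91 bp at all windows.

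Long fragments and purine runs went together, and the letters of such runs hold none of the 4 sites. Among windows on fragments of 200 bp or more, 10.5% held a purine run and 7.12% an A/C or G/T run. Among the regions on such fragments the shares were 71.4% and 21.7%, so the runs were more frequent at the regions at comparable fragment length. Fragments of 300 to 500 bp held 1035 regions, of which 82.3% had a run, compared with 16.3% of all windows on fragments of that length.

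The fit of peaks to single fragments differed between the KO and WT lists. Both ends lay at cuts in 57.4% and 59.0% of the KO RNase R- peaks outside genes. For WT these shares were 12.5% and 11.2%. The difference was 46.31 points, with SDs of 1.15 for KO and 0.939 for WT (p = 0.333 by exact permutation, adjusted p = 0.370, n = 2 lists each). With RNase R, 44.4% and 49.1% of KO peaks but 0.704% and 2.63% of WT peaks fitted a fragment in this way. The lowest peak width was 249 and 247 bp in the WT RNase R- lists. The part of this difference in the KO and WT comparisons was not tested.

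The median GC content of the regions was 39.0%, compared with 43.0% for KO linear R-loops in genes, 43.1% for KO regions outside genes with an RNase R+ peak, and 40.5% for windows outside genes. Over 500 bp around the summit it was 40.8%, so its order against the windows depends on the length measured. Motifs that can fold into a G-quadruplex (4 stretches of at least 3 G, or of C on the other strand, with loops of 1 to 7 bases) were found in 8.97% of the regions and 4.38% of the windows outside genes. In 147 regions the motif lay within the purine run. On average 74.5% of the bases of the regions were soft-masked as repeats in the reference, compared with 39.9% of the windows. The median absolute GC skew, the excess of G over C or of C over G, was 0.44 in the regions and 0.11 in the windows.

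At the median, the regions lay closer to genes than the sequence outside genes did. The median distance to the nearest gene was 14694 bp, compared with 20202 bp for all windows outside genes. Within 1000 bp of a gene were 7.18% of the regions (354) and 4.95% of the windows, and within 10000 bp 40.9% (2017) and 33.1%. Within 100 bp the order was turned, with 0.710% of the regions and 0.923% of the windows, which were tiled from the gene ends. The nearest gene was protein-coding for 1711 regions (34.7%, windows 29.4%), a processed pseudogene for 1357 (27.5%, windows 30.9%) and a lincRNA for 803 (16.3%, windows 17.1%).

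**Figure D5:**
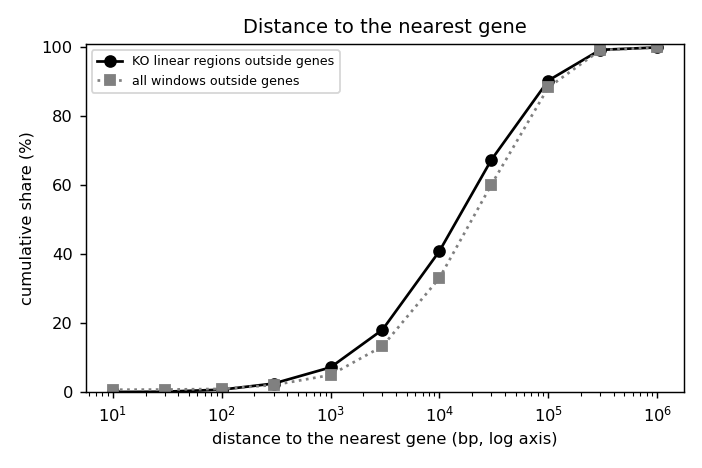
Cumulative share (y axis, percent) of the 4928 regions (black) and of all windows outside genes (grey) by distance in bp to the nearest GENCODE M21 gene (x axis, log axis). The curve of the regions lies above that of the windows at 1000 bp (7.18% against 4.95%) and at 10000 bp (40.9% against 33.1%).

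Regions were placed on both sides of protein-coding genes. Of the 199 regions within 1000 bp of a protein-coding gene as the nearest gene, 75 (37.7%) were upstream of it and the others downstream, compared with 48.8% of the windows. Within 10000 bp, 518 of 976 (53.1%) were upstream, compared with 51.0% of the windows. In the 635 regions within 10000 bp of a protein-coding gene that held a run, the purines were on the coding strand of that gene in 335 (52.8%). By the RefSeq annotation of the same build, 512 regions (10.4%) overlap a gene, compared with 9.88% of the windows. A long noncoding RNA gene was overlapped by 330 regions and a protein-coding gene by 137.

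Few genes had several regions nearby. The regions within 10000 bp had 1936 nearest genes, of which 1861 had 1 region. Pisd-ps1, a pseudogene of phosphatidylserine decarboxylase, had 4, between 2600 and 9974 bp away. Prrx1, a homeobox transcription factor gene of mesenchymal cells, had 3, between 2730 and 8369 bp away. Gm23025, Gm3667 and Tdpoz4 also had 3 each. St3gal1, a sialyltransferase gene, had 2, the closer one at 201 bp, and so had AC122445.1, Gm22846, Gm3822 and Gm37997. These 5 had the closest regions among the genes with 2.

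Of all 21755 protein-coding genes, 1492 (6.86%) had a region within 10000 bp. The share was 5.37% of 1135 olfactory receptor genes, 6.04% of 331 vomeronasal receptor genes, 7.05% of 397 zinc finger genes and 7.46% of 67 histone genes. None of the 69 protocadherin genes had one. Among genes named Rpl or Rps, 14 of 102 (13.7%) had a region nearby. The names Rps6ka4, Rps6kl1 and Rps19bp1 among these belong to 2 kinases and a binding protein, and without such genes it was 11 of 83 ribosomal protein genes (13.3%), Rpl13a, Rpl23 and Rps14 among them. Of 20 fibroblast matrix genes, Sparc and Tnc had one. Of the 5 circular RNA host genes that the study examined, Adarb1, an RNA editing enzyme gene, and Nfix, a transcription factor gene, had one.

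The density along the genome was uneven. It averaged 3.67 regions per Mb of sequence outside genes and ran from 2.43 on chromosome 14 to 5.57 on chromosome 17 among the autosomes, while chromosome X had 1.31 (146 regions). Windows with a purine run were also scarcer on X, at 2.73%, compared with 3.26% to 3.99% on the autosomes, but per 1000 such windows X still had 12.4 regions, compared with 18.9 to 40.8. The peaks of the WT RNase R- lists outside genes were also least dense on X, at 0.27 per Mb for both lists together, compared with 1.00 to 5.22 on the autosomes. Neighbouring regions were a median of 278 kb apart, and 122 of 4908 gaps were under 5 kb. The densest 1 Mb, from 67 to 68 Mb of chromosome 4, held 11 regions, of which 4 were multi-copy.

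In WT cells few of the regions were called, in lists that were shorter throughout. On these chromosomes the WT RNase R- lists hold 3822 and 2117 peaks, and the KO RNase R- lists 26117 and 31920. The study lists fewer uniquely mapped reads for these WT libraries, and the part of depth was not tested. A peak of WT RNase R- replicate 1 lay on 228 regions (4.63%) and one of replicate 2 on 128 (2.60%). Either list had a peak on 320 regions (6.49%), compared with 5.14% of all 43820 merged KO RNase R- regions on these chromosomes, and both lists on 36 (0.731%), compared with 0.942%. The shares of the regions are thus near those of all KO regions. KO linear R-loops in genes had 3.63% and 1.86% with a peak of the same lists, so the mean difference between outside and inside genes was 0.87 points (exact permutation test, two-sided, p = 0.667, adjusted p = 0.667, n = 2 lists). Both shares come from the same lists, and within a list the differences were 1.00 and 0.74 points (p = 0.500 by exact sign-flips, which is the lowest for 2 pairs). At a KO fold of at least 10 the mean difference was 1.72 points.

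The regions shared with WT were chosen through a called peak in both genotypes, so their levels are a description. Where WT RNase R- replicate 1 had a peak, its median fold was 6.08 and that of KO replicate 1 was 7.76, with median heights of 9 and 16 fragments. For replicate 2 the medians were 6.73 in WT and 7.91 in KO, with heights of 10 and 18. The 1 added above and below lowers folds more in WT, where the background level was 0.479 and 0.489 fragments. In KO it was 0.843 and 0.896, so folds of the 2 genotypes are not on the same scale. The 320 shared regions had a purine run in 73.4% of cases and the 4608 others in 67.3%. They were multi-copy in 13.1% and 5.73% of cases.

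Among the 36 regions with a peak of both WT RNase R- lists, 10 were multi-copy. A purine run was present in 55.6% of these 36, below the 67.3% of the regions without a WT RNase R- peak. The highest lower KO fold was at chr11:3119410-3120236, 5667 bp upstream of Pisd-ps1, with folds of 17.9 in each KO replicate and 5.41 and 8.73 in WT replicates 1 and 2. At chr8:20028199-20028852, 6255 bp from the pseudogene Gm20778, the order was turned, with folds of 11.3 and 12.7 in KO and 17.2 and 14.7 in WT. At chr8:107021091-107021417, 1376 bp downstream of the syntrophin gene Sntb2, the folds were 11.4 and 11.1 in KO and 8.79 and 4.61 in WT. At chr15:10174358-10174884, 2353 bp upstream of the prolactin receptor gene Prlr, they were 9.55 and 15.1 in KO and 10.3 and 6.73 in WT. At chr5:123903346-123903714, upstream of the translation factor gene Denr, GC content was 65.6% with no purine run over 8 bases, and the folds were 14.4 and 9.91 in KO and 9.46 and 9.17 in WT. At chr16:3349665-3350350, 1294 bp from the lincRNA gene Gm49504, the folds were 10.5 and 10.1 in KO and 12.3 and 13.4 in WT. At chr4:68757412-68757641, 3872 bp downstream of Brinp1, a gene of nervous tissue, they were 9.12 and 10.7 in KO and 10.4 and 8.06 in WT. At chr4:79637189-79637513, over 100 kb from a gene, they were 11.9 and 16.4 in KO and 7.44 and 5.27 in WT. These heights, 7 to 36 fragments, are small, and the folds of KO and WT rest on different backgrounds. The order of KO and WT at a single region has no test.

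Nearly no region was called in WT after RNase R. Each WT RNase R+ list had a peak on 3 regions, and either list on 4 (0.0812%), compared with 0.349% of all KO RNase R- regions. The choice had removed regions with a KO RNase R+ peak, so a low share was partly built in. At chr12:84282944-84283374, 1857 bp upstream of the prostaglandin reductase gene Ptgr2, all 4 WT lists had a peak. The folds there were 8.01 and 7.60 without RNase R in KO, 10.1 and 13.4 without it in WT, and 14.9 and 14.5 with it in WT, while neither KO RNase R+ list had a peak. At chr6:47667176-47667505 all 4 WT lists also had a peak, on sequence with an expected level of 12.6 fragments in KO replicate 1. The third and the fourth, at chr4:99532424-99533183 and chr10:27863088-27863346, had a peak of 1 WT RNase R+ list each, with folds of 7.91 and 6.15.

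Seen from the WT side, 228 of the 2072 peaks of WT RNase R- replicate 1 outside genes and 128 of the 1114 of replicate 2 lay on the regions, a mean of 11.2%. Of the WT RNase R+ peaks outside genes it was 2.11% and 1.58%. The difference of 9.40 points was larger than the SDs of 0.344 and 0.377 (n = 2 lists each). Since regions with a KO RNase R+ peak had been removed, its direction was largely set by the choice and it is given as a description. The rule applied to the WT lists themselves left 256 regions, of which 33 (12.9%) overlapped the KO regions. These are 0.670% of the 4928, and 172 of the 256 overlapped a KO RNase R- peak of either replicate.

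The number of linear R-loop peaks outside genes was higher in KO. Counted per list, without regard to the other replicate, 10475 and 13108 RNase R- peaks in KO and 1991 and 1038 in WT overlapped no gene and no RNase R+ peak of the same genotype. The difference of the mean log2 numbers was 3.03, an 8.15-fold ratio of geometric means, with SDs of 0.229 and 0.664 on the log2 scale (p = 0.333 by exact permutation, adjusted p = 0.370, n = 2 lists each). Further measures moved with this difference, namely the background level (0.843 and 0.896 fragments for KO, 0.479 and 0.489 for WT) and the share of peaks with both ends at cuts given above. KO heights and expected levels were also scaled down to the background of the same-numbered WT list. A −log10 p at or above the lowest of that list was then required. With these steps, 7896 and 7638 KO peaks were left and the log2 difference was 2.43. This covers the background level only. For the RNase R- libraries, the study lists more uniquely mapped reads in KO, by a larger factor than the background level. No scaling to those totals was made.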

How the data were processed

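Peak lists of 8 DRIP-seq libraries were analysed, and the 8 inputs were not used here. The authors removed adapters, aligned read pairs to GRCm38 (mm10 in the submitters' processing notes, with SAMtools 1.1 and MACS2) with Bowtie2, removed duplicates, and ran MACS2 on every replicate separately at a q of 0.001. The control used for calling is not given in the sources used here. Calling per replicate makes the number of peaks depend on depth, and reads without a unique position were removed, which thins out near-identical copies. The deposited fold enrichment is a ratio, (height + 1)/(expected level + 1) at the summit. The deposited p and q are −log10 values. The deposited score and summit offset are the caller's, and the score was not used.

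Heights and expected levels were recovered from fold and p as whole numbers, which matched within the rounding of the printed p for 100% of the peaks of each list on chromosomes 1 to 19 and X. The total reads of the libraries entered no calculation, and the background level (the lowest expected level of a list) was used in their place. Between the KO and WT RNase R- libraries, the totals the study lists differ more than the background level does. Between the RNase R+ libraries they differ less than that level. Counting error applies to all heights, and fragments are counted without molecular identifiers. Merging and overlap (at least 1 bp) followed bedtools rules and were tested on simulated data against bedtools 2.31.1, as was the motif code against direct searches. Sequence came from the RefSeq copy of GRCm38 and genes from GENCODE M21. Windows outside genes were tiled end to end at 259 bp without unknown bases. Python 3.11.15, numpy 2.4.6 and pandas 2.3.3 were used.

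Groups came from sample titles, and each list from GEO's record of its sample. The peak names in the list of WT RNase R- replicate 1 are those of replicate 2, with different values, so the numbering of these lists is uncertain. Lists were compared by exact permutation tests, two-sided, with Benjamini-Hochberg adjustment over 10 tests. Replicate numbers were not taken as pairs, since same-numbered KO and WT lists did not deviate together. Regions named are the 10 with the highest lower fold, the 10 highest among those in both WT RNase R- lists, the 3 widest and those nearest the limits. Of these, 2 regions are not reported here. Genes named are their nearest genes and the 10 with the most regions, ties broken by the closest region. Printed sequences and the regions with a WT RNase R+ peak were added after their values were seen, as were the repeat classes, the cut sites and their alternatives. All members and lists were chosen with earlier results of these data known. Alternatives are given in the closing section.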

Additional observations from a re-analysis of the deposited data

Results flagged for a closer look

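The share of peaks outside genes with a purine run shifted with RNase R upward in KO and downward in WT. In KO it was 2.14 percentage points higher with RNase R than without, and both RNase R+ lists lay above both RNase R- lists. In WT the change was -7.21 points, and both RNase R+ lists lay below. The share with a quadruplex motif did the reverse, with changes of -2.16 points for KO and 6.34 points for WT. In KO the quadruplex shares were 9.55% and 10.5% in untreated lists, against 8.68% and 7.03% in treated ones. In WT they were 8.25% and 7.54% in untreated lists, against 16.9% and 11.6% in treated ones. The differences between the genotypes were not tested. Multi-copy peaks made up 45.8% and 37.4% of the WT RNase R+ peaks outside genes, and from 3.71% to 9.78% of those of the other lists. Without multi-copy peaks the WT shift in purine runs was not downward, as given with the alternatives.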

How the results depend on the processing

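Over 16 results and 108 alternatives, 92 gave a value near the main one or the same direction and side of the threshold. These 92 include the blocks for the replicate number, where the differences could not move. A fold of at least 10 in both KO replicates left 298 regions, of which 14.1% held a WT RNase R- peak. Leaving out 1 library gave 5440 to 13108 regions, with 13108 without KO RNase R- replicate 1 and 10475 without replicate 2, where 1 peak then sufficed. The share with a WT RNase R- peak ran from 2.60% (without WT replicate 1) to 4.99% when 1 library was left out. The median GC content was 40.8% over 500 bp around the summit, and the quadruplex share 13.0% with loops of up to 12 bases. The share with a purine run was 76.9% for runs of at least 20 bases, 61.6% for 40, 70.7% over whole regions, 68.7% without multi-copy regions and 76.8% at a fold of at least 10. The difference in purine runs between WT RNase R- and RNase R+ peaks turned from 7.21 to -2.08 points without multi-copy peaks, and was 19.26 points on fragments of 200 bp or more. The KO and WT difference in A/C or G/T runs was 8.45 points after scaling, which also left out peaks that overlap an RNase R+ peak. The KO and WT difference in purine runs with RNase R was 16.71 points without multi-copy peaks, that without RNase R 55.33 points at a fold of at least 10 and 8.15 points on fragments of 200 bp or more, and the difference between regions outside and inside genes 1.72 points at a fold of at least 10. The cause was not tested. The fragment limit was not run for the RNase R+ comparison, and a fold of 10 is a different cut in KO and WT. All other tested comparisons kept their direction.

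A block for the replicate number could not move the differences, since a mean of paired differences equals the difference of means. They were 3.03, 9.40, 0.87, 16.58, 5.54, 9.99, 7.04, 7.21, 25.93 and 46.31, with p = 0.500 (exact sign-flip test), the smallest that 2 pairs allow. Replicate differences of same-numbered lists correlated at 0.09 between KO and WT over 36 regions, and at -0.32 between WT RNase R- and RNase R+ over 64. Crossing the WT numbers, a step added after seeing the data, could not move the difference of 9.40 either (exact sign-flip test, p = 0.500). Depth limits the WT comparison, since WT peaks outside genes had heights from 6 fragments up, and tests of 2 lists against 2 cannot pass a threshold of 0.05.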
